A study of Homo sapiens with 9 samples.

Results

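The 20 protein-coding genes described here were close to absent from control LNCaP cells and present in both derived lines, a UGT2B28 knockdown and its rescue. They were chosen on these levels: a gene's CPM (its read count scaled to the total of all gene counts of the library) had to average under 0.4 in the control and at least 2 in the knockdown and in the rescue. Of 19853 protein-coding genes, 24 had such levels, and 4 of these (FUCA2, EPHA6, CXCL12 and SPATA18) were left out by name. The 20 are TCEA3, SALL2, FEV, HOXC12, KISS1R, PTGER4, HPGD, CMTM8, MAP1LC3A, UGT8, OSBPL10, SH3GL3, SPOCK2, HS6ST2, ADAMTSL3, TSPOAP1, KASH5, VCX3A, PHGR1 and SMIM10L2A. Their distance from the control was therefore set by the choice and is given as a description, with no test.

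LNCaP is a widely used line of human prostate cancer cells that respond to androgens. UGT2B28 is an enzyme that joins glucuronic acid to androgens. Total RNA of 9 libraries was sequenced in 3 groups of 3: rescue cells (UGT2B28 overexpressed in the knockdown background, KD4OE, G418 at 1 mg/mL for selection), UGT2B28 knockdown cells (KD4, puromycin at 3 µg/mL) and control cells (NT, no selection named). All were grown in RPMI with 10% fetal bovine serum and are labelled with a time of 24 h. There was 1 knockdown line, and the rescue was made from its background, so an effect of the knockdown and a difference between lines cannot be told apart. Rescue and knockdown differ in UGT2B28 overexpression, in the drug named and in line derivation at once, so these cannot be told apart either. Whether KD4 was 1 clone or a pool, whether rescue cells also stayed in puromycin, and whether the replicates were separate cultures is not stated, so the p-values cover the spread among the libraries alone, part or all of which may be technical.

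Many genes of other tissues and of the embryo are held silent in a differentiated cell by methylated CpG dinucleotides in their promoters, by the Polycomb complexes or by histone H3 lysine 9 methylation. Such states are passed on when a cell divides, so the cells of a line, and more so those of a clone, can share which genes are silent. In cancer cells, homeobox genes and germ-cell genes are among those whose silencing is often altered.

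Gene counts summed to 20300744 to 26459528 per library, and 3 counts in a library, the limit that a count of 0 allows, amounted to 0.113 to 0.148 CPM. Control replicate 1 stood further from the other control libraries than these from each other (chi-square over its degrees of freedom 21.8 and 18.2, against 5.05). UGT2B28 itself averaged 62.4 ± 7.44 CPM in rescue, 0.339 ± 0.303 CPM in knockdown and 0.534 ± 0.394 CPM in control cells (SD, n = 3 each), and knockdown and control did not pass the test of a difference (adjusted p = 0.52). All 10 luminal prostate markers were present in every group, and their summed level was 9148 to 10099.8 CPM in rescue, 9019 to 9399 CPM in knockdown and 4184 to 4386 CPM in control libraries. KLK3 (4410 CPM in rescue, 3692 CPM in knockdown and 1443 CPM in control cells), KLK2 and TMPRSS2 made up most of that difference, while KRT8 averaged 873 CPM in rescue, 1046 CPM in knockdown and 1024 CPM in control cells.

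Together the 20 genes had 175 to 177 CPM in the rescue libraries and 95.6 to 102 CPM in the knockdown libraries, against 5.65, 2.28 and 3.42 CPM in the control libraries. The median gene averaged 5.93 CPM in rescue, 3.70 CPM in knockdown and 0.188 CPM in control cells. Per kilobase of exon the median was 1.54 CPM in rescue, 1.00 CPM in knockdown and 0.0362 CPM in control cells. The median of the genes' percentiles among all protein-coding genes was 52.0 in rescue, 48.5 in knockdown and 30.8 in control cells. The genes thus stood near the middle of the coding genes in both derived lines, a place that the 2 CPM limit helped to set. Of those 19853 coding genes, 6656 averaged under 0.4 CPM in all 3 groups. In bulk libraries, RNA in fewer cells and less RNA in each cell cannot be told apart. For each of the 20, every rescue and every knockdown library was above every control library, as the choice of genes makes likely; over all 18389 genes tested such a separation was found for 23.3% in rescue and for 19.0% in knockdown. The highest single control value was 0.692 CPM (SMIM10L2A) and the lowest single values elsewhere were 1.59 CPM in rescue (OSBPL10) and 1.48 CPM in knockdown (SH3GL3). CMTM8 had no count in any control library. Control replicate 1 held 147 of the genes' counts, against 49 and 75 in the other control libraries.

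**Figure D1:**
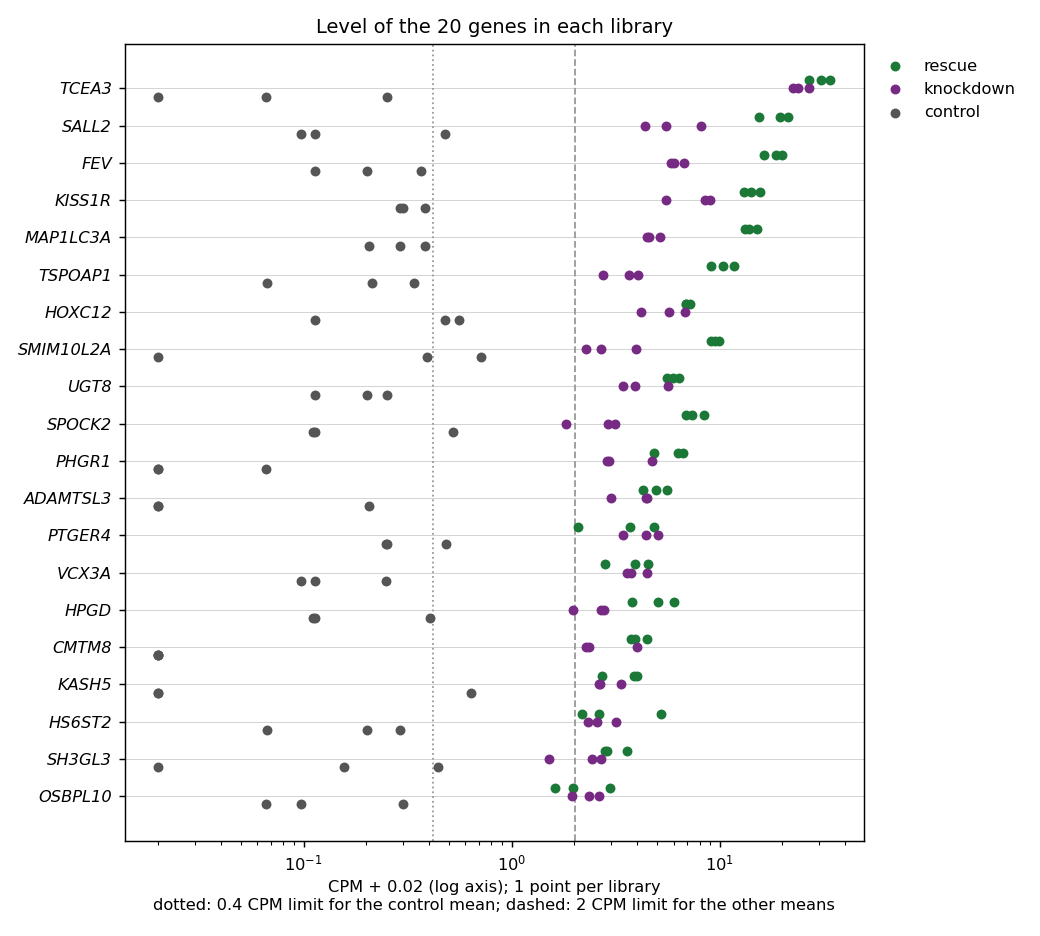
Level of each of the 20 genes in each library, in CPM on a log axis, for rescue, knockdown and control; points are libraries. The rescue and knockdown points lie at 1.48 CPM or more for every gene and the control points at or below 0.692 CPM.

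The promoters of the group ranged from CpG-dense to CpG-poor, as those of coding genes at large do. Of the 20 genes, 14 matched RefSeq's promoter table (GRCh38.p14); TCEA3, KISS1R, HOXC12, MAP1LC3A, PHGR1 and TSPOAP1 did not. The sequences below are the 250 bases before the start of 7 of them, 5′ to 3′ on the gene's strand, with each CpG in capitals. They were chosen to set CpG-dense promoters beside CpG-poor ones and to include the genes that lie close together on chromosomes 15 and 3.
FEV: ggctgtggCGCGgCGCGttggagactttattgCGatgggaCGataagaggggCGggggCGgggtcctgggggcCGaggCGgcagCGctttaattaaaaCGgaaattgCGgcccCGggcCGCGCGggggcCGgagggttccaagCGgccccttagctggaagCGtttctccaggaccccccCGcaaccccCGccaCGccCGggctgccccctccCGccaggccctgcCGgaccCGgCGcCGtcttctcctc
SALL2: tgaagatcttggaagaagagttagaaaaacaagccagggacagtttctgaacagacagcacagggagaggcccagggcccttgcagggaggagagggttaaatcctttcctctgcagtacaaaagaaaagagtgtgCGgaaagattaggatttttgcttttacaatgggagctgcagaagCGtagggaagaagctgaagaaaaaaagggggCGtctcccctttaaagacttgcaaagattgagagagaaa
ADAMTSL3: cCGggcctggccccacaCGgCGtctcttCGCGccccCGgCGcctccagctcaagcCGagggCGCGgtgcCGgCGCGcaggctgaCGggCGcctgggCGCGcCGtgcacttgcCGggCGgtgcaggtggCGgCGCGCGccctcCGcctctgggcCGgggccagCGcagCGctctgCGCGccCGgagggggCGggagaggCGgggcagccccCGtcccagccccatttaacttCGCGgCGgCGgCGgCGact
SH3GL3: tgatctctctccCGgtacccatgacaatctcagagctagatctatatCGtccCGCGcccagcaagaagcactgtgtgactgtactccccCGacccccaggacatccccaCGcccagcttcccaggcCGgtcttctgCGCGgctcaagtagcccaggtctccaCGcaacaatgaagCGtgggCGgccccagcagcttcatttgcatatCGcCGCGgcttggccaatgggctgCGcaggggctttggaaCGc
OSBPL10: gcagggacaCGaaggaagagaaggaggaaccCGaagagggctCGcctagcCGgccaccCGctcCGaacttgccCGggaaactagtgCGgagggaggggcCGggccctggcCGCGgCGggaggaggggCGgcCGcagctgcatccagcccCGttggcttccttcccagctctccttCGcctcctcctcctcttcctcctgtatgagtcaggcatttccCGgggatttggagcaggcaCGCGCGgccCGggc
CMTM8: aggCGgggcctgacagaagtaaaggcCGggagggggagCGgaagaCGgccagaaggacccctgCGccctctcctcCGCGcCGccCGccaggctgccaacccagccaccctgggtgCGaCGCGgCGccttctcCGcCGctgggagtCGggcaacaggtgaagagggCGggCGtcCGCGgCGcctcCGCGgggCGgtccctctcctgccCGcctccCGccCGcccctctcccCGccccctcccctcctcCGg
VCX3A: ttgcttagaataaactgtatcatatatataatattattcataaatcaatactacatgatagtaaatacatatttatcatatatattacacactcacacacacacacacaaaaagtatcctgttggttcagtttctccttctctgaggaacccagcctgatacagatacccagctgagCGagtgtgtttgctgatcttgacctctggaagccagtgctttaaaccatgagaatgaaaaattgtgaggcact

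The FEV window (chr2:218985185-218985434, minus strand) held 29 CpGs and the ADAMTSL3 window (chr15:83653873-83654122, plus strand) held 40. CMTM8 (chr3:32238430-32238679, plus strand) had 29, OSBPL10 (chr3:31981263-31981512, minus strand) 21, and SH3GL3 at its upstream start (chr15:83447091-83447340, plus strand) 17. The other SH3GL3 start (chr15:83490364-83490613, plus strand), not printed above, had 1. SALL2 (chr14:21537122-21537371, minus strand) had 3 and VCX3A (chrX:6535119-6535368, minus strand) had 1. Gene-level counts do not tell which start was used.

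Over 300 bases, from 250 before to 50 after the start, the CpG ratio (CpGs found over those given by the C and G content, averaged over a gene's starts) had a median of 0.757 in the 14 genes, with quartiles of 0.481 and 0.794. It was at least 0.6 in 9 of the 14, or 64.3%. The same share was 64.7% of 15276 protein-coding genes with a promoter, 32.1% of 4625 that averaged under 0.4 CPM in all 3 groups, and 83.9% of 8974 with at least 2 CPM in all 3. In a mirror set, chosen to be at 2 CPM or more in control cells and under 0.4 CPM in both derived lines, 17 genes were found, 14 had a promoter, and 71.4% of these reached 0.6. KASH5 (1.04), ADAMTSL3 (0.987) and FEV (0.961) had the highest ratios; SALL2 (0.218), HS6ST2 (0.120) and VCX3A (0.0992) had the lowest. SH3GL3, averaged over its starts, was at 0.471 and thus under 0.6. The letters TATAAA, searched on the gene's strand in the 60 bases before the start, were in 0 of the 14, in 4.64% of all, in 9.64% of the genes low in all groups and in 1.78% of those present in all. These are descriptions of 14 promoters; DNA methylation was not measured.

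**Figure D2:**
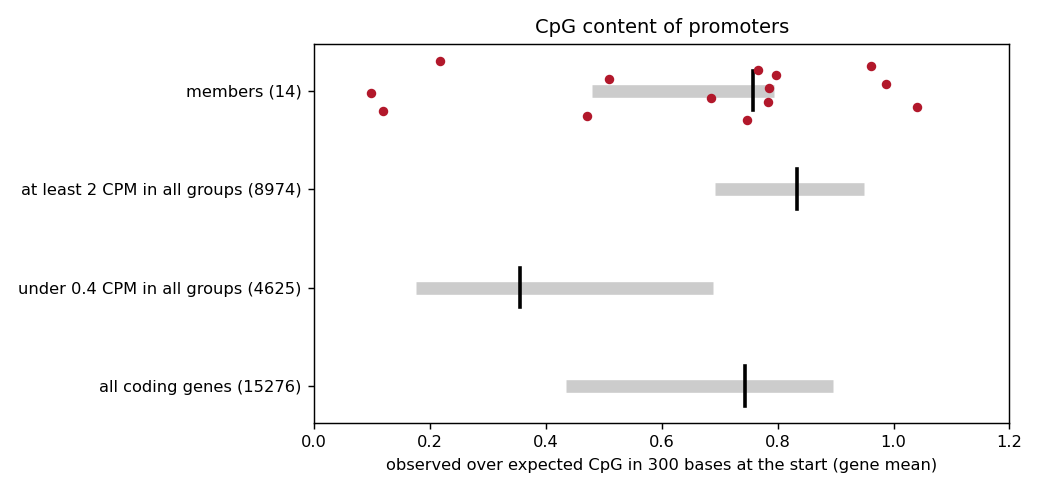
CpG ratio of the promoters (CpGs found over those given by base content, 300 bases) of the 14 genes with a RefSeq promoter, beside the median (bar) and quartiles (grey) of other sets of protein-coding genes. The 14 spread from 0.0992 to 1.04, with a median of 0.757. The median was 0.744 for all coding genes and 0.355 for genes low in all 3 groups.

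The contrast that the choice of genes did not use is rescue against knockdown, although requiring 2 CPM in both keeps out genes that fell far. Its lines also differ in the drug named and in how they were made, so an effect of UGT2B28 overexpression cannot be told apart from these. All 20 passed the filter on low counts. Of these, 8 were higher in rescue, 0 were lower and 12 did not pass the test, a share of 40% beside 10.1% of all 18389 genes (5.20% higher and 4.88% lower). They were SALL2, FEV, KISS1R, MAP1LC3A, TSPOAP1, SMIM10L2A, SPOCK2 and HPGD. For 6 the difference was at least 2-fold, beside 1.00% of all genes. Every rescue library lay above every knockdown library for 11 genes (55%), beside 15.2% of all genes, and the median log2 fold change was 0.48, against -0.00 over all genes. None of the 20 was closer to the control in rescue than in knockdown by a difference that passed the test. The limit of 2 CPM in rescue largely keeps out such a fall, so this follows in part from the choice.

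The bound that the choice sets can be read from genes that met the other limits. With the limits of control and knockdown kept and that of rescue dropped, 31 genes remained, and their rescue values were called higher than in knockdown for 8 and lower for 5. The 11 added genes included ADAMTS6 and CTAG2, which were back under 0.4 CPM in rescue, and MAF at 1.73 CPM in rescue and 4.43 CPM in knockdown. With the limit of knockdown dropped instead, 41 genes remained, 21 higher and 0 lower in rescue. In each case the added genes were under 2 CPM where the limit was dropped and at 2 CPM or more in the other line. Their direction was thus fixed by the limits, and these counts are no result about the genes.

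**Figure D3:**
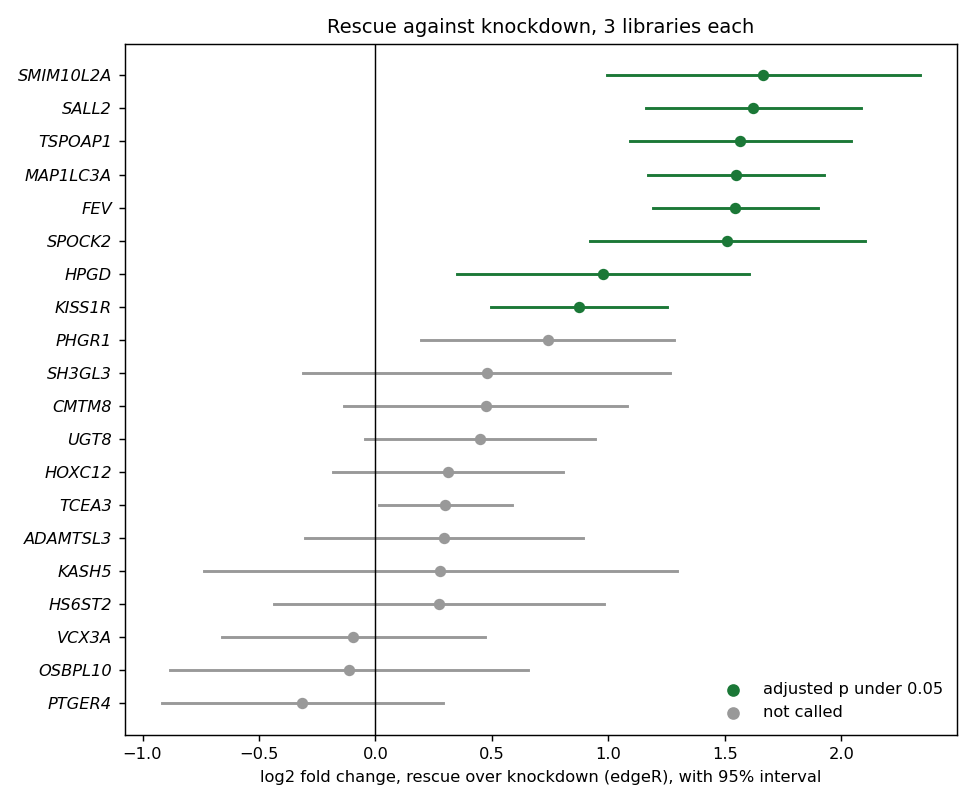
Log2 fold change of rescue over knockdown for each of the 20 genes, with 95% confidence intervals, the genes called at an adjusted p under 0.05 marked. The 8 called genes lie to the right of 0; PTGER4, OSBPL10 and VCX3A have estimates below 0 with intervals across it.

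Among regulators of transcription, SALL2 (ENSG00000165821.11_5, chromosome 14), a spalt-family zinc-finger factor of development, and FEV (ENSG00000163497.2_2, chromosome 2), an ETS factor that specifies serotonergic neurons, rose in rescue. SALL2 had 19.5, 15.5 and 21.4 CPM in rescue and 8.07, 5.50 and 4.37 CPM in knockdown, against 0.0769, 0.0931 and 0.456 CPM in control libraries. FEV had 16.3, 18.6 and 19.99 CPM in rescue and 6.69, 6.02 and 5.79 CPM in knockdown, against 0.346, 0.0931 and 0.182 CPM in control libraries. For both, the 3 groups did not overlap. SALL2 was 3.08-fold higher in rescue than in knockdown (log2 1.62, SE 0.22, adjusted p = 2.5e-05) and FEV 2.92-fold (SE 0.17 on the log2 scale, adjusted p = 3.7e-07). An antisense gene at SALL2, ENSG00000257096, averaged 2.05 CPM in rescue, 1.05 CPM in knockdown and 0 CPM in control cells; as the strand setting of the counting is not given, reads of the pair cannot be told apart.

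TCEA3 (ENSG00000204219.10_3, chromosome 1), a tissue-restricted member of the TFIIS family that restarts paused RNA polymerase, was the most abundant of the 20 in CPM. It had 26.8, 30.8 and 34.0 CPM in rescue and 22.5, 26.96 and 23.8 CPM in knockdown, against 0.231, 0 and 0.0456 CPM in control libraries. Summed over 3 libraries it had 2220 counts in rescue, 1776 in knockdown and 7 in control, 6 of these in control replicate 1. Rescue and knockdown overlapped and their difference did not pass the test (log2 0.30, 95% interval 0.01 to 0.59, adjusted p = 0.19). HOXC12 (ENSG00000123407.3_3, chromosome 12), a homeobox factor of the posterior body axis, had 6.85, 6.90 and 7.18 CPM in rescue and 6.77, 4.17 and 5.70 CPM in knockdown, against 0.538, 0.0931 and 0.456 CPM in control libraries. Every rescue library was above every knockdown library, though narrowly, and the difference did not pass the test (log2 0.31, interval -0.18 to 0.81, adjusted p = 0.50).

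Of signalling genes, KISS1R (ENSG00000116014.9_2, chromosome 19), the receptor for kisspeptins, had 14.2, 15.7 and 13.1 CPM in rescue and 8.49, 8.98 and 5.47 CPM in knockdown, against 0.269, 0.279 and 0.365 CPM in control libraries. It was 1.83-fold higher in rescue than in knockdown (log2 SE 0.19, adjusted p = 0.0019), with no overlap. The ligand gene KISS1 averaged 0.302 CPM in rescue, 0.366 CPM in knockdown and 0.252 CPM in control cells and was called in no contrast. HPGD (ENSG00000164120.13_2, chromosome 4), the dehydrogenase that inactivates prostaglandin E2, had 6.01, 5.04 and 3.78 CPM in rescue and 1.95, 2.77 and 2.67 CPM in knockdown, against 0.385, 0.0931 and 0.0912 CPM in control libraries. The groups did not overlap and the difference from knockdown was 1.97-fold (log2 0.98, SE 0.31, adjusted p = 0.039). This call was lost without knockdown replicate 1 (adjusted p = 0.158), 2 (0.0586) or 3 (0.0875) and without rescue replicate 1 (0.194) or 2 (0.118).

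PTGER4 (ENSG00000171522.5_2, chromosome 5), the EP4 receptor of prostaglandin E2, had 4.83, 2.06 and 3.67 CPM in rescue and 4.40, 3.41 and 5.06 CPM in knockdown, against 0.462, 0.233 and 0.228 CPM in control libraries. Rescue and knockdown overlapped (log2 -0.31, interval -0.91 to 0.29, adjusted p = 0.59). TTC33, a gene that overlaps it on the opposite strand, averaged 12.5 CPM in rescue, 11.0 CPM in knockdown and 10.6 CPM in control cells. The limit on strand given for SALL2 holds for this pair too. The other prostaglandin E2 receptors, PTGER1, PTGER2 and PTGER3, stayed under 0.4 CPM in every group. CMTM8 (ENSG00000170293.8_3, chromosome 3), a MARVEL-domain membrane protein linked to endocytosis of the EGF receptor, had 3.89, 3.73 and 4.46 CPM in rescue and 3.98, 2.33 and 2.25 CPM in knockdown, against no count in the control. Against a floor of 3 counts over the control group it was at least 93.6-fold higher in rescue and at least 67.0-fold higher in knockdown. Rescue and knockdown overlapped (log2 0.47, interval -0.14 to 1.08, adjusted p = 0.37).

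Genes of membranes, lipids and vesicles included the autophagosome protein gene MAP1LC3A (ENSG00000101460.12_2, chromosome 20), whose product LC3A is joined to lipid on the forming vesicle. It had 13.7, 15.1 and 13.3 CPM in rescue and 4.47, 5.13 and 4.55 CPM in knockdown, against 0.269, 0.186 and 0.365 CPM in control libraries. Within each group its values were close together, and it was 2.92-fold higher in rescue than in knockdown (SE 0.18 on the log2 scale, adjusted p = 1e-06). UGT8 (ENSG00000174607.10_4, chromosome 4), the ceramide galactosyltransferase of myelin lipids and, like UGT2B28, a member of the UDP-glycosyltransferase superfamily, had 6.35, 5.95 and 5.56 CPM in rescue and 3.90, 3.41 and 5.61 CPM in knockdown, against 0.231, 0.0931 and 0.182 CPM in control libraries. The lowest rescue value was under the highest knockdown value, and the difference did not pass the test (log2 0.45, interval -0.04 to 0.94, adjusted p = 0.27).

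OSBPL10 (ENSG00000144645.13_3, chromosome 3), a lipid-transfer protein of the oxysterol-binding family, was the lowest of the 20 in rescue. It had 2.96, 1.94 and 1.59 CPM in rescue and 2.60, 2.33 and 1.93 CPM in knockdown, against 0.0769, 0.279 and 0.0456 CPM in control libraries (rescue against knockdown log2 -0.12, interval -0.88 to 0.65). SH3GL3 (ENSG00000140600.16_3, chromosome 15), the membrane-bending protein endophilin A3, had 2.86, 3.57 and 2.80 CPM in rescue and 2.41, 1.48 and 2.67 CPM in knockdown, against 0.423, 0 and 0.137 CPM in control libraries (log2 0.48, interval -0.31 to 1.26). Neither difference passed the test (adjusted p = 0.90 and 0.52); for SH3GL3 the groups did not overlap and for OSBPL10 they did.

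Among genes of the extracellular matrix, SPOCK2 (ENSG00000107742.12_2, chromosome 10), the secreted proteoglycan testican-2, had 7.34, 8.37 and 6.88 CPM in rescue and 1.80, 2.89 and 3.13 CPM in knockdown, against 0.4999, 0.0931 and 0.0912 CPM in control libraries. It was 2.85-fold higher in rescue than in knockdown (log2 1.51, SE 0.29, adjusted p = 0.00068). HS6ST2 (ENSG00000171004.18_4, chromosome X), which adds sulfate to heparan sulfate chains, had 5.22, 2.62 and 2.15 CPM in rescue and 2.56, 3.17 and 2.30 CPM in knockdown, against 0.269, 0.0465 and 0.182 CPM in control libraries. Rescue replicate 1 was apart from the others, the groups overlapped and the difference did not pass the test (adjusted p = 0.71). ADAMTSL3 (ENSG00000156218.12_3, chromosome 15), a matrix glycoprotein related to the ADAMTS proteases but without their protease domain, had 5.57, 4.92 and 4.27 CPM in rescue and 4.47, 2.97 and 4.41 CPM in knockdown, against 0, 0.186 and 0 CPM in control libraries (log2 0.29, interval -0.30 to 0.89, adjusted p = 0.62). Its rescue and knockdown values overlapped.

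The remaining genes are best known from nerve, germ cells or gut. TSPOAP1 (ENSG00000005379.16_5, chromosome 17), which encodes the presynaptic RIM-binding protein 1, had 9.01, 11.7 and 10.4 CPM in rescue and 4.02, 2.73 and 3.63 CPM in knockdown, against 0.192, 0.0465 and 0.319 CPM in control libraries, and was 2.96-fold higher in rescue than in knockdown (log2 1.57, SE 0.23, adjusted p = 2.5e-05). The antisense gene that overlaps it, TSPOAP1-AS1, averaged 27.2 CPM in rescue, 27.3 CPM in knockdown and 23.4 CPM in control cells and was called in no contrast. As at SALL2, the strand setting is not given, so reads of this pair cannot be told apart. KASH5 (ENSG00000161609.9_5, chromosome 19), which tethers meiotic chromosomes to the cytoskeleton through the nuclear envelope, had 2.71, 3.85 and 4.01 CPM in rescue and 3.33, 2.65 and 2.62 CPM in knockdown, against 0.615, 0 and 0 CPM in control libraries. All of its 16 control counts came from control replicate 1. Rescue and knockdown overlapped (adjusted p = 0.80).

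VCX3A (ENSG00000169059.12_3, chromosome X), of a germ-cell gene family on the X chromosome, had 3.89, 2.78 and 4.50 CPM in rescue and 3.71, 3.57 and 4.46 CPM in knockdown, against 0.0769, 0.0931 and 0.228 CPM in control libraries (log2 -0.09, interval -0.66 to 0.47, adjusted p = 0.89). Its near-identical relatives were also higher in knockdown than in control: VCX averaged 19.7 ± 1.56 CPM in rescue, 20.9 ± 1.08 CPM in knockdown and 4.05 ± 0.719 CPM in control cells (SD, n = 3 each; log2 2.41, adjusted p = 2.2e-13 for knockdown against control). VCX2 and VCX3B passed that test as well (log2 3.52 and 3.25), at low levels. VCX2 averaged 0.476 CPM in rescue, 0.684 CPM in knockdown and 0.0513 CPM in control cells. VCX3B averaged 1.08 CPM in rescue, 1.12 CPM in knockdown and 0.116 CPM in control cells. With 4 and 8 counts in the control group, they passed the filter on low counts through the derived lines alone. Reads that align to more than 1 place were counted apart from genes (5.26% to 7.62% of each table). Reads that match several of these copies may thus be missing, and the level of each copy is uncertain.

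PHGR1 (ENSG00000233041.8_2, chromosome 15), a small protein of gut epithelium, had 6.65, 6.27 and 4.7998 CPM in rescue and 2.87, 2.93 and 4.69 CPM in knockdown, against a single count in the control (0, 0 and 0.0456 CPM). It was 1.67-fold higher in rescue, with no overlap, and did not pass the test (log2 0.74, interval 0.20 to 1.28, adjusted p = 0.076). It did pass without control replicate 1 (adjusted p = 0.0447) or knockdown replicate 3 (0.044). SMIM10L2A (ENSG00000178947.8_2, chromosome X), a small membrane protein gene on the X chromosome, had 9.95, 9.44 and 9.07 CPM in rescue and 2.68, 2.25 and 3.95 CPM in knockdown, against 0.692, 0.372 and 0 CPM in control libraries. It was 3.17-fold higher in rescue (log2 1.67, SE 0.32, adjusted p = 0.0015), a call that DESeq2 did not make (adjusted p = 0.0595). SMIM10L2B, its near-identical copy, averaged 2.87 CPM in rescue, 2.46 CPM in knockdown and 3.64 CPM in control cells and was called in no contrast. Reads that match both copies may be missing from both, so the level of each is uncertain.

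Values close to the limits of the choice were as follows. HOXC12 (0.362 CPM), SMIM10L2A (0.355 CPM) and PTGER4 (0.307 CPM) had the highest control means inside the limit, and HOXB6 (0.407 CPM), VANGL2 (0.449 CPM) and CHRNA2 (0.530 CPM) were just outside it. In knockdown SH3GL3 (2.19 CPM) and OSBPL10 (2.29 CPM) were just inside and PARVA (1.95 CPM) and STAT5A (1.92 CPM) just outside. In rescue OSBPL10 (2.16 CPM) was just inside and FOXD4 (1.83 CPM) and H1-4 (1.77 CPM) just outside.

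Coding genes next to the 20 on their chromosomes were measured as well. The nearest protein-coding gene on each side, the 20 themselves passed over, gave 38 genes. A neighbour that was itself chosen was thus left out in advance, as with SH3GL3 and ADAMTSL3, which lie side by side. Of the 38, 13 averaged under 0.4 CPM in all 3 groups and 22 had at least 2 CPM in control cells. Of 24 tested, 8 were higher and 8 lower in rescue than in control (66.7% called, beside 37.8% of all genes), and 7 were higher and 6 lower in knockdown than in control (54.2%, beside 32.1%). Over all genes the calls were 19.0% higher and 18.8% lower in rescue, and 16.5% higher and 15.6% lower in knockdown. Without rescue replicate 1 the 16 calls of rescue against control became 10. The median log2 fold change of the 24 was 0.11 in rescue and 0.05 in knockdown against control, and 1 of them was at least 2-fold higher in both (4.99% and 3.98% of all genes were in each alone). That gene, NLGN4X, a synaptic adhesion protein next to VCX3A, averaged 19.1 ± 0.167 CPM in rescue, 30.9 ± 6.30 CPM in knockdown and 5.40 ± 1.12 CPM in control cells (SD, n = 3 each). It was higher than in control by log2 1.83 in rescue (adjusted p = 1.5e-10) and 2.55 in knockdown (adjusted p = 1.7e-13), and lower in rescue than in knockdown (log2 -0.72, adjusted p = 0.00072).

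SH3GL3 and ADAMTSL3 are neighbours on chromosome 15, and OSBPL10 and CMTM8 on chromosome 3 have 2 coding genes between them, ZNF860 and GPD1L. Chosen after their values were seen, GPD1L and CMTM7, on either side of CMTM8, were already present in control cells. GPD1L averaged 44.3 ± 4.29 CPM in rescue, 36.3 ± 5.13 CPM in knockdown and 23.9 ± 0.460 CPM in control cells, and CMTM7 averaged 13.7 ± 2.37 CPM in rescue, 14.2 ± 1.94 CPM in knockdown and 8.90 ± 1.07 CPM in control cells (SD, n = 3 each). Both were higher than in control in rescue (log2 0.90 and 0.63) and in knockdown (log2 0.63 and 0.71), by less than 2-fold. At the HOXC12 end of its cluster, HOXC13 was lower than in control, by log2 -0.88 in rescue and -0.55 in knockdown.

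**Figure D4:**
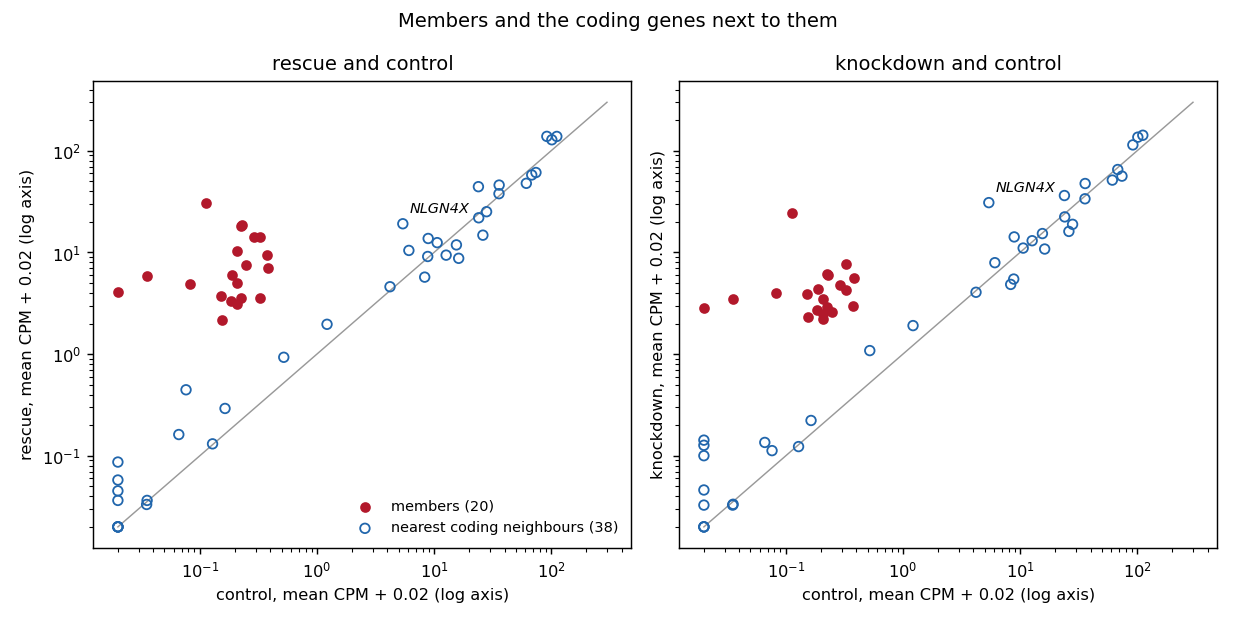
Mean CPM + 0.02 in rescue (left) and in knockdown (right) against control, on log axes. Filled points are the 20 genes and open points their 38 nearest coding neighbours outside the 20. The line marks equal levels. The 20 form a cloud far above the line at low control levels, and the neighbours with 0.4 CPM or more in control lie nearer to it, NLGN4X (30.9 CPM in knockdown, 5.40 CPM in control) above it. Some neighbours that were too low to test also lie off the line, ARSJ at 0.426 CPM in rescue and 0.0563 CPM in control among them.

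Genes of the same families or pathways as the 20, chosen by family once the 20 were known, numbered 55. Of these, 20 averaged under 0.4 CPM in all groups, among them SALL1, SALL3 and SALL4, and 36 were tested. In rescue against knockdown 2 were higher and 2 lower (11.1%, beside 10.1% of all genes). Against control, 12 were higher and 10 lower in rescue (61.1%, beside 37.8%), and 13 were higher and 6 lower in knockdown (52.8%, beside 32.1%). In knockdown, 4 were higher and 3 lower by at least 2-fold (3.98% and 3.88% of all genes). The 4 were SLCO2A1 and the VCX3A relatives VCX, VCX2 and VCX3B, whose reads may match VCX3A as well. Of these, VCX2 and VCX3B passed the filter on low counts through the derived lines alone. In the prostaglandin group, the transporter gene SLCO2A1 was higher in knockdown than in control (log2 1.56, adjusted p = 0.031) and the cyclooxygenase gene PTGS1 lower (log2 -1.57, adjusted p = 0.027). Both were at low levels. SLCO2A1 averaged 1.28 ± 0.194 CPM in knockdown and 0.451 ± 0.446 CPM in control cells. PTGS1 averaged 0.659 ± 0.397 CPM in knockdown and 2.02 ± 0.345 CPM in control cells (SD, n = 3 each). GAL3ST1, which adds sulfate to the lipid that UGT8 makes, was lower in knockdown (log2 -1.54, adjusted p = 0.0028), and so was HS6ST1, which acts as HS6ST2 does (log2 -0.65, adjusted p = 1e-05). MAP1LC3B, the LC3 gene that most cells use, was higher by log2 0.29 (adjusted p = 0.032), and TCEA1, the widely expressed TFIIS gene, by log2 0.24 (adjusted p = 0.012).

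The HOX genes, which pattern the body axis and keep region-specific levels in adult tissue, were measured as a list apart from HOXC12. Of 38, 15 were tested. In rescue, 10 were higher and 1 lower than in control (73.3%, beside 37.8% of all genes; median log2 1.46), and in knockdown 11 were higher and 2 lower (86.7%, beside 32.1% of all genes; median log2 1.04). Higher calls alone made up 19.0% of all genes in rescue and 16.5% in knockdown. The 11 became 7 without control replicate 1 and 7 without knockdown replicate 3. In rescue against knockdown 3 were higher (HOXA5, HOXA10 and HOXB13) and 0 lower (20%, beside 10.1% of all genes). HOXA10 averaged 15.4 ± 0.229 CPM in rescue, 8.90 ± 0.970 CPM in knockdown and 4.43 ± 0.590 CPM in control cells (SD, n = 3 each), with adjusted p = 0.0013 for rescue against knockdown and 1.6e-05 for knockdown against control. HOXB6, just outside the limit in control, averaged 2.07 CPM in rescue, 3.12 CPM in knockdown and 0.407 CPM in control cells (log2 2.97 for knockdown against control, adjusted p = 2.3e-06). HOXB13, the prostate HOX factor that binds with the androgen receptor, averaged 390 CPM in rescue, 311 CPM in knockdown and 234 CPM in control cells (log2 0.45 for knockdown against control).

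**Figure D5:**
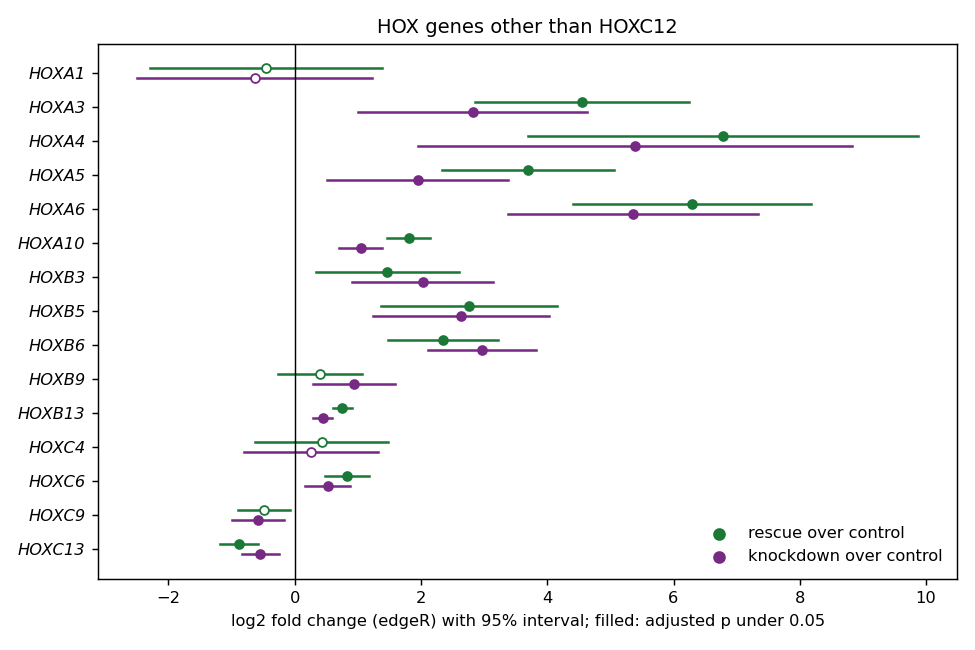
Log2 fold changes against control of the 15 tested HOX genes other than HOXC12, in rescue and in knockdown, with 95% intervals; filled points are called. Most lie above 0, with 10 of 15 called higher in rescue and 11 of 15 in knockdown.

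Genes of the silencing machinery were called in both directions, with shares near the 32.1% of all genes called in knockdown against control. Of 17 tested genes that write, read or erase DNA methylation, 4 were higher and 2 lower in knockdown than in control (35.3%, median log2 0.09); HELLS, a remodeller needed for DNA methylation, was higher by log2 0.82 (adjusted p = 0.00024). Of 30 Polycomb and H3K27 demethylase genes, 4 were higher and 5 lower (30%, median -0.02), with CBX2 lower by log2 -0.72 and PCGF5 higher by 0.55. Of 16 genes of H3K9 methylation and the HUSH complex, 2 were higher, MPHOSPH8 and TASOR, and 4 lower (37.5%, median -0.09). In rescue against control, 5 were higher and 3 lower in the DNA methylation list (47.1%, beside 37.8% of all genes). The Polycomb list had 6 higher and 6 lower (40%), and the H3K9 list 3 higher and 5 lower (50%). In rescue against knockdown 1 gene was higher and 2 were lower in the DNA methylation list (17.6%, beside 10.1% of all genes). The Polycomb list had 3 higher and 2 lower (16.7%), and the H3K9 list 1 higher and 0 lower (6.25%).

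Other gene sets that are often silent as blocks had calls in both directions in knockdown against control. Of 40 cancer-testis antigen genes, which are normally kept to the germ line, 14 were tested, and 1 was higher and 3 lower in knockdown than in control (28.6%, beside 32.1% of all genes). MAGEA4 averaged 3.05 CPM in rescue, 2.82 CPM in knockdown and 44.9 CPM in control cells (log2 -3.94 for knockdown against control), while CTAG2 was higher in knockdown than in control (log2 4.59) and lower in rescue than in knockdown (log2 -4.69). Of 33 tested clustered protocadherin genes, 6 were higher and 7 lower in knockdown than in control (39.4%). In rescue, 8 were higher and 0 lower than in control (24.2%, beside 37.8% of all genes; median log2 0.29), and 3 were higher and 0 lower than in knockdown (9.09%, beside 10.1%); these genes share exons, so their counts are uncertain.

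Besides the luminal list given above, 6 lists of markers of other cells were measured, of which the endothelial one alone was higher in both derived lines than in every control library. Basal epithelial markers summed to 9.88 to 11.0 CPM in rescue, 8.34 to 9.14 CPM in knockdown and 20.3 to 28.2 CPM in control libraries. Fibroblast markers summed to 59.3 to 70.8 CPM in rescue, 43.8 to 53.4 CPM in knockdown and 63.5 to 74.9 CPM in control libraries, with PDGFRA and FAP at 0 in all 9 libraries. Neuroendocrine markers summed to 1142 to 1200.3 CPM in rescue, 693 to 784 CPM in knockdown and 1131 to 1218 CPM in control libraries, with 7 of 10 under 0.4 CPM in every group and CHGB at 0. These lists were thus not higher in both derived lines. Immune markers summed to 2.22 to 3.17 CPM in rescue, 2.45 to 3.72 CPM in knockdown and 2.50 to 3.19 CPM in control libraries, with PTPRC and CD3E at 0. Markers of carcinoma lines that lack the androgen receptor summed to 9.09 to 9.52 CPM in rescue, 10.0 to 12.5 CPM in knockdown and 56.9 to 64.3 CPM in control libraries. The endothelial list stood at 5.48 to 7.33 CPM in rescue and 5.78 to 6.62 CPM in knockdown against 1.86 to 3.27 CPM in control libraries, with 4 of its 6 measured markers under 0.4 CPM in every group; its part in the levels of the 20 genes was not tested.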

How the data were processed

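RNA of 9 LNCaP libraries in 3 groups was analysed from the authors' deposited raw read counts per gene (60880 rows a library). The submitters' processing notes name HISAT2 and HTSeq on hg19, with FastQC and cutadapt; for versions, library kit and strand setting the entry is: not given in the sources used here. Summary rows (unassigned reads) were left out, and gene counts were 40.3% to 42.9% of each table. Symbols came from a separate list of gene names, or from GENCODE v29 where that list gave none. Types of 56817 rows came from GENCODE v29. That annotation is of another build, so it served for names, types, exon lengths and gene order alone. Promoters are RefSeq's (GRCh38.p14).

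Levels in the text are CPM over gene counts, as the choice of genes needs. Tests used R 4.3.3 and edgeR 4.0.16: filterByExpr (minimum count 10, 18389 genes kept), TMM factors, and a quasi-likelihood fit to all 9 libraries with 1 mean per group; a gene was called at a Benjamini-Hochberg adjusted p under 0.05 over all genes tested. All adjusted p-values come from this fit unless DESeq2 (1.42.0) is named. Intervals are 95%; ratios and floors of 3 counts cover counting error only. The scripts were tested on simulated data. The alternatives were other scalings, no filter, a replicate block, DESeq2, only the groups compared, each replicate left out and other limits for the choice of genes. All 20 genes are named; of neighbours, those at least 2-fold changed the same way against control in both lines; of lists, up to 4 genes with the smallest adjusted p; a few others were picked once values were known, as stated beside them, or belong to the families of the 20. The 20 genes, families and lists were chosen with earlier results of these data known.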

Additional observations from a re-analysis of the deposited data

How the results depend on the processing

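The number of genes chosen depends on the limits: 2 with control under 0.2 CPM and the others at 4 CPM or more, 115 with 0.8 and 1 CPM, and 11 where every library had to pass. It was 20 to 22 with each replicate left out, and 19 or 20 of the 20 genes stayed each time. SH3GL3 was lost without knockdown replicate 3 and OSBPL10 without rescue replicate 1. HOXC12 was lost without control replicate 2 and SMIM10L2A without control replicate 3. Genes just outside the limits, such as PARVA and HOXB6, entered some of these sets. The number of the 20 called in rescue against knockdown, 8 in the text, ranged from 7 to 9 over all alternatives. Over 300 alternatives for single genes, 288 kept direction and call, 6 lost the call (5 of them HPGD, 1 SMIM10L2A), 3 gained it (PHGR1) and 3 changed sign without a call in either case: VCX3A at log2 0.073 without rescue replicate 2 (-0.25 to 0.073 over the replicates left out), HS6ST2 at -0.19 without rescue replicate 1 (-0.19 to 0.52) and OSBPL10 at 0.077 without rescue replicate 3 (-0.39 to 0.077). Calls over all genes in rescue against knockdown, 1854 in the text, ranged from 1196 to 2364 with each replicate left out, lowest without rescue replicate 1. Neighbours called in rescue against control, 16 in the text, ranged from 10 to 15 with each replicate left out and from 14 to 16 under the other alternatives, and HOX genes called higher from 7 to 11 in knockdown against control, an alternative added after seeing the data, as were plain library sizes (1764 calls in rescue against knockdown).

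The libraries share only a number: deviations of same-numbered libraries correlated at 0.03, 0.09 and 0.00 for rescue and knockdown, at -0.01, 0.11 and -0.03 for rescue and control, and at 0.18, 0.14 and -0.01 for knockdown and control. With the replicate block, calls were 2319 in rescue against knockdown, 7363 in rescue against control and 6348 in knockdown against control, and 8 of the 20 genes were called. The cause of these changes was not tested. Depth limits the control values, where 3 counts amount to 0.115 to 0.140 CPM.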
